A study of Mus musculus with 29 samples.

Results

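A set of 10 genes in common use as markers of fibro-adipogenic progenitors (FAPs) was followed through tibialis anterior (TA) muscle of adult and old mice: Pdgfra, Pdgfrb, Ly6a, Cd34, Dpt, Pi16, Mfap5, Postn, Fbn1 and Gsn. They were listed by symbol, with earlier results of these data known, and all 10 were found among the 22537 gene symbols of the count table. Poly-A RNA of the whole TA, a fast muscle of the lower leg, was sequenced from untreated male C57BL/6 mice of 6m (n = 7), 24m (n = 7) and 28m (n = 8), where m is months of age and the oldest are labelled as 28 months or more. The mice came from an aging colony and had all been through tests of physical function before the muscle was taken. In the first sequencing run the 24m mice were read together with the 6m mice. In the second, the 28m mice were read with a new library of each of these 7 mice at 6m. The 29 libraries thus came from 22 mice. Each age was compared with the 6m libraries of its own run, and with those of the other run only as an alternative. Below, replicate numbers name mice within an age, and a 6m replicate number names the same mouse in both runs.

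FAPs are mesenchymal cells that lie between the muscle fibres. They lay down much of the collagen and elastic matrix, release factors that support satellite cells during repair, and can turn into fibroblasts or adipocytes. The surface proteins Pdgfra, Ly6a (Sca1) and Cd34 are used to sort them, whereas Dpt, Pi16 and Mfap5 mark a fibroblast state that is found near larger vessels and fascia. Several of the 10 are not exclusive to FAPs: Pdgfrb also marks pericytes, Ly6a and Cd34 are made by endothelial cells, and Gsn is made by many cell types. In RNA of a whole muscle, fewer cells of a type and less RNA per cell cannot be told apart.

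Total counts per library lay between 17633475 and 33499162, with a median of 24250878. Values of single mice are CPM, that is, counts scaled to library size with edgeR's TMM method over all 29 libraries, and log2 fold changes come from edgeR's quasi-likelihood test within a run. A gene passed at an adjusted p under 0.05 (Benjamini-Hochberg over all genes tested), and it was called a DEG if its log2 fold change was also at least 1 in size. The 7 genes of fast fibres summed to between 108001 and 191621 CPM in the 29 libraries, so the tissue carried the markers of its label. In every library the 10 members had counts, and the lowest was 45 counts for Postn in a 28m mouse. All 10 passed the filter on low counts in each comparison.

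At 28m, 5 of the 10 members were lower than at 6m and passed, 1 was higher and passed, and 4 did not pass. Fbn1, Pdgfra, Gsn, Dpt and Pdgfrb fell. Ly6a rose. Once a trend with exonic length and GC content was taken out, the calls of Ly6a, whose sign turned, and of Pdgfra were lost. Without that correction, Dpt passed in 7 of 15 fits that left out 1 mouse. Of all 12994 genes tested, 22.9% passed as lower and 24.3% as higher. Fbn1 was the only member that was a DEG, a call that 3.37% of genes received in the lower direction. The median log2 fold change of the 10 was -0.63, and that of all genes tested was 0.01. With the trend removed these medians were -0.37 and -0.01.

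**Figure D1:**
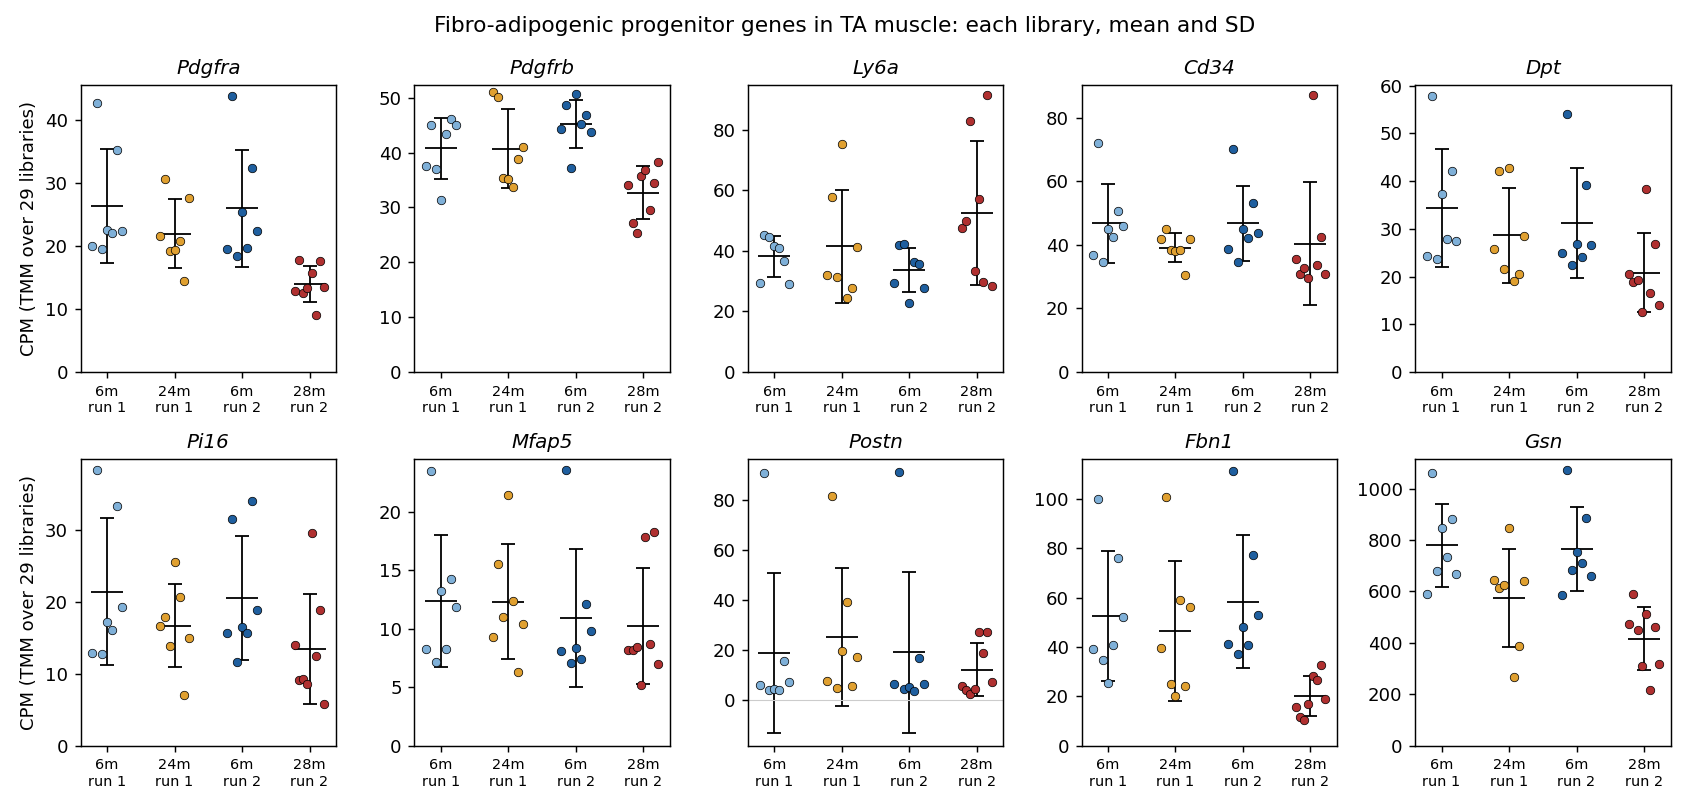
CPM of each of the 10 genes in each library (points, 1 panel per gene, linear axis), with the mean (line) and SD (bar) of the 6m and 24m libraries (run 1) and of the 6m and 28m libraries (run 2). For Fbn1 and Pdgfra all 8 mice at 28m lay below all 7 at 6m of the same run, and Postn was near 91 CPM in both libraries of 1 mouse at 6m.

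Pdgfra encodes the receptor of platelet-derived growth factors by which FAPs are usually recognised. Its level in the second run was between 18.5 and 43.8 CPM at 6m (median 22.4) and between 9.05 and 17.7 CPM at 28m (median 13.4). All 8 mice at 28m lay below all 7 at 6m, a separation in the lower direction that 6.18% of all genes tested showed. The 6m mean was 25.9 ± 9.21 CPM (SD, n = 7), the 28m mean was 14.0 ± 2.88 CPM (SD, n = 8), and the log2 fold change was -0.92 ± 0.19 (SE, edgeR adjusted p = 0.00166). With length and GC content accounted for it was -0.52 and did not pass (edgeR adjusted p = 0.0648). Pdgfra lies on chromosome 5 (75152292 to 75198215, plus strand, GRCm38).

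Pdgfrb encodes the related receptor that pericytes and FAPs share. It was between 37.2 and 50.7 CPM at 6m (median 45.2) and between 25.3 and 38.3 CPM at 28m (median 34.3). In 7 of 8 mice at 28m it was below all mice at 6m, and the groups overlapped through 1 mouse. The difference was small but even among mice, with a log2 fold change of -0.49 ± 0.10 (SE, edgeR adjusted p = 0.00166). The coefficient of variation of Pdgfrb in these 6m libraries was 9.59%, the lowest of the 10 members in that group.

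Of the PDGF ligands, Pdgfd, which binds the beta receptor, fell by 0.61 ± 0.19 on the log2 scale (SE, edgeR adjusted p = 0.0170), 1 of 4 that passed, a share near the 22.9% of all genes that passed as lower. The other ligands did not pass and had log2 fold changes of 0.33 for Pdgfa, -0.18 for Pdgfb and 0.05 for Pdgfc. With the 6m libraries of the first run in place of the second-run ones, 0 of the 4 ligands passed, and of all 12984 genes tested 1422 passed as lower and 1559 as higher.

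Ly6a encodes Sca1, a small anchored surface protein, and was the member that went up. It was between 22.8 and 42.2 CPM at 6m (median 35.5) and between 28.5 and 91.4 CPM at 28m (median 48.7). The groups overlapped, with 5 of 8 mice at 28m above all 7 at 6m and 3 within their range. The log2 fold change was 0.61 ± 0.24 (SE, edgeR adjusted p = 0.0477), close to the threshold. It was lost in 10 of 15 fits that left out 1 mouse, and with length and GC content accounted for, as described below, the difference was gone (-0.04).

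Cd34 encodes a sialomucin of progenitor and endothelial surfaces. It was between 34.7 and 70.05 CPM at 6m (median 43.7) and between 29.6 and 87.0 CPM at 28m (median 33.2). At 28m, 5 of 8 mice were below all mice at 6m and 1, replicate 5, was above all of them. The log2 fold change of -0.24 ± 0.22 (SE) did not pass (edgeR adjusted p = 0.374), and without that 1 mouse it was -0.50 and passed (edgeR adjusted p = 0.0112). Without 6m replicate 2 it was -0.11, and with length and GC content accounted for it was -0.06, neither of which passed.

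The promoters of Pdgfra and Dpt are shown because both genes fell at 28m and each has 1 start site in RefSeq. Fbn1 also fell and has 1 start site, but all 250 bases before it lie in a GENCODE exon and are not shown. The sequences are the bases before the RefSeq start in GRCm38.p6, read 5′ to 3′ on the plus strand, for Pdgfra chr5:75152001-75152250 and for Dpt chr1:164796413-164796643. For Dpt, the last 19 bases before the start were left out because the GENCODE annotation places them in the first exon. Motifs found were to be set in capitals, and none was found.
Pdgfra: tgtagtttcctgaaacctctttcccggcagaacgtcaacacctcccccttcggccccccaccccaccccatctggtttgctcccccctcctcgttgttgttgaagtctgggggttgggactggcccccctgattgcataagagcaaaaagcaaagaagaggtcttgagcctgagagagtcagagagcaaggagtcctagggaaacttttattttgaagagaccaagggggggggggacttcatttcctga
Dpt: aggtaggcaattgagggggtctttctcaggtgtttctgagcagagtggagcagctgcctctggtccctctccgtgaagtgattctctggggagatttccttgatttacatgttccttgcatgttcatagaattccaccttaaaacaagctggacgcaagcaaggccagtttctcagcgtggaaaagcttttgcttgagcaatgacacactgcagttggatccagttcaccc
In all, 5 motifs were searched for on both strands over 250 bases, and the share of all 32851 RefSeq promoters that held each was counted over the same length. The TATA box was searched for as TATAAA, which 12.4% held. The CCAAT box, by its name's letters, was present in 33.8%. The GC box was read as GGGCGG, with a share of 32.7%. An AP-1 site was taken as TGACTCA, found in 4.46%. For a TEAD site the letters were GGAATG, and 12.6% had them. Of the 10 members, 7 were matched in the table of RefSeq promoters used here, with 10 promoters in all. The promoter of Fbn1 held 1 GC box, that of Pi16 held 1 CCAAT box, and 1 of the 2 promoters of Postn held 1 TATA box. Each of the 3 promoters of Gsn held at least 1 GC box and 2 of them a CCAAT box, and that of Cd34 held none of the 5 motifs.

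Fbn1 encodes fibrillin-1, the backbone of the microfibrils around cells and elastic fibres, and it had the largest difference of the 10 members, though with length and GC content accounted for Dpt was slightly lower (-1.09 against -1.07). It was between 37.1 and 111 CPM at 6m (median 47.9) and between 10.5 and 32.6 CPM at 28m (median 18.03). All 8 mice at 28m were below all 7 at 6m. The 6m mean was 58.3 ± 26.9 CPM (SD, n = 7), the 28m mean was 20.2 ± 8.07 CPM (SD, n = 8), and the log2 fold change was -1.55 ± 0.28 (SE, edgeR adjusted p = 0.000879). Fbn1 lies on chromosome 2 (125300594 to 125507993, minus strand, GRCm38), and 2442 of its exonic bases are also exonic in Gm9913 on the other strand. The strand setting of the counting was not given in the sources used here, so reads of the pair cannot be told apart.

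Dpt encodes dermatopontin, a small matrix protein that binds decorin and fibrils. It was between 22.4 and 54.1 CPM at 6m (median 26.6) and between 12.5 and 38.4 CPM at 28m (median 19.01). Of the mice at 28m, 6 of 8 were below all mice at 6m, and replicates 5 and 7 lay within their range. The log2 fold change was -0.61 ± 0.24 (SE, edgeR adjusted p = 0.0427). It passed in 7 of 15 fits that left out 1 mouse, where the adjusted p ran from 0.00846 to 0.133, the latter without 6m replicate 2, and it also missed the threshold with upper-quartile scaling.

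Pi16, which encodes a secreted peptidase inhibitor of fibroblasts, had the same direction without passing. It was between 11.6 and 34.01 CPM at 6m (median 16.5) and between 5.78 and 29.6 CPM at 28m (median 10.9). The log2 fold change was -0.64 ± 0.31 (SE, edgeR adjusted p = 0.100), and 4 of 8 mice at 28m were below all mice at 6m. Without 28m replicate 5, the highest mouse at that age, it was -0.90 and passed (edgeR adjusted p = 0.0158). With length and GC content accounted for it was -0.36 and did not pass (edgeR adjusted p = 0.411).

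Mfap5 encodes a small glycoprotein that binds fibrillin microfibrils. It was between 7.06 and 23.6 CPM at 6m (median 8.34) and between 5.22 and 18.3 CPM at 28m (median 8.33), and the ranges lay over each other. The log2 fold change was -0.13, with a 95% interval from -0.77 to 0.52 (edgeR adjusted p = 0.748). Without 6m replicate 2 it was 0.20, again without passing.

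Postn encodes periostin, a matricellular protein made by activated fibroblasts, and it varied most among mice. It was between 3.42 and 91.5 CPM at 6m (median 6.15) and between 2.202 and 27.4 CPM at 28m (median 6.49). The medians were close, and 1 mouse, 6m replicate 2, stood at 91.5 CPM against 16.7 CPM in the next mouse of its age. The log2 fold change of -0.69 ± 0.74 (SE) did not pass (edgeR adjusted p = 0.452), and its 95% interval ran from -2.25 to 0.87. Without that mouse the log2 fold change turned to 0.78, also without passing (edgeR adjusted p = 0.263).

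Gsn encodes gelsolin, which cuts and caps actin filaments, and was the most abundant member. It was between 587 and 1073 CPM at 6m (median 709) and between 217 and 588 CPM at 28m (median 456). In 7 of 8 mice at 28m it was below all mice at 6m. The 6m mean was 764 ± 164 CPM (SD, n = 7), the 28m mean was 416 ± 123 CPM (SD, n = 8), and the log2 fold change was -0.91 ± 0.18 (SE, edgeR adjusted p = 0.00164). Gsn lies on chromosome 2 (35256380 to 35307892, plus strand, GRCm38).

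At 24m, 0 of the 10 members passed against the first-run 6m libraries, and 0 had an unadjusted p under 0.05 in edgeR. DESeq2 and limma-voom also passed 0. Few genes passed at this age, 0.0840% of 13103 in either direction, and 11.8% had an unadjusted p under 0.05. The median log2 fold change of the members was -0.23, against 0.03 for all genes tested. Gsn came nearest, between 589 and 1060 CPM at 6m (median 735) and between 267 and 847 CPM at 24m (median 625), with a log2 fold change of -0.45 ± 0.21 (SE, edgeR adjusted p = 0.427).

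For Fbn1, the ranges at 24m lay over those at 6m. It was between 25.3 and 99.7 CPM in the first-run libraries at 6m (median 40.7) and between 20.3 and 101 CPM at 24m (median 39.6). Its log2 fold change was -0.19, with a 95% interval from -1.002 to 0.63. Pdgfra was between 19.5 and 42.7 CPM at 6m (median 22.3) and between 14.4 and 30.6 CPM at 24m (median 20.8), with a log2 fold change of -0.27 and a 95% interval from -0.72 to 0.17.

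Pdgfrb was almost level, between 31.3 and 46.0 CPM at 6m (median 43.4) and between 33.7 and 51.0 CPM at 24m (median 38.8), with a log2 fold change of -0.01. Ly6a was between 29.2 and 45.1 CPM at 6m (median 41.0) and between 24.5 and 75.5 CPM at 24m (median 32.0), with a log2 fold change of 0.11. The direction for Ly6a at 24m was not stable, since it was -0.14 with length and GC content accounted for and ran from -0.09 to 0.21 in 14 fits that left out 1 mouse. The wider range of Ly6a in old mice was present at both ages. Its coefficient of variation was 45.1% at 24m and 45.1% at 28m against 17.6% and 21.8% in the 6m libraries. This difference in spread was not tested. The CPM behind it were not corrected for length and GC content, and the highest mouse at 24m was replicate 4.

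The remaining members at 24m had log2 fold changes of -0.27 for Cd34, -0.28 for Dpt, -0.38 for Pi16, -0.02 for Mfap5 and 0.39 for Postn. In 14 fits that left out 1 mouse, Cd34 ran from -0.32 to -0.13 and Dpt from -0.40 to -0.10. Pi16 ran from -0.50 to -0.17 and Mfap5 from -0.20 to 0.23, and none of these passed. The value for Postn was -0.31 without 24m replicate 2 and 1.87 without 6m replicate 2, neither of which passed. Mice at 24m were between 30.6 and 45.0 CPM for Cd34 (6m between 34.6 and 72.0) and between 19.02 and 42.8 CPM for Dpt (6m between 23.7 and 57.9). They were between 7.04 and 25.6 CPM for Pi16 (6m between 12.7 and 38.3), between 6.31 and 21.5 CPM for Mfap5 (6m between 7.15 and 23.5) and between 4.81 and 81.8 CPM for Postn (6m between 3.80 and 90.9). In each of these 5 genes the groups overlapped.

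**Figure D2:**
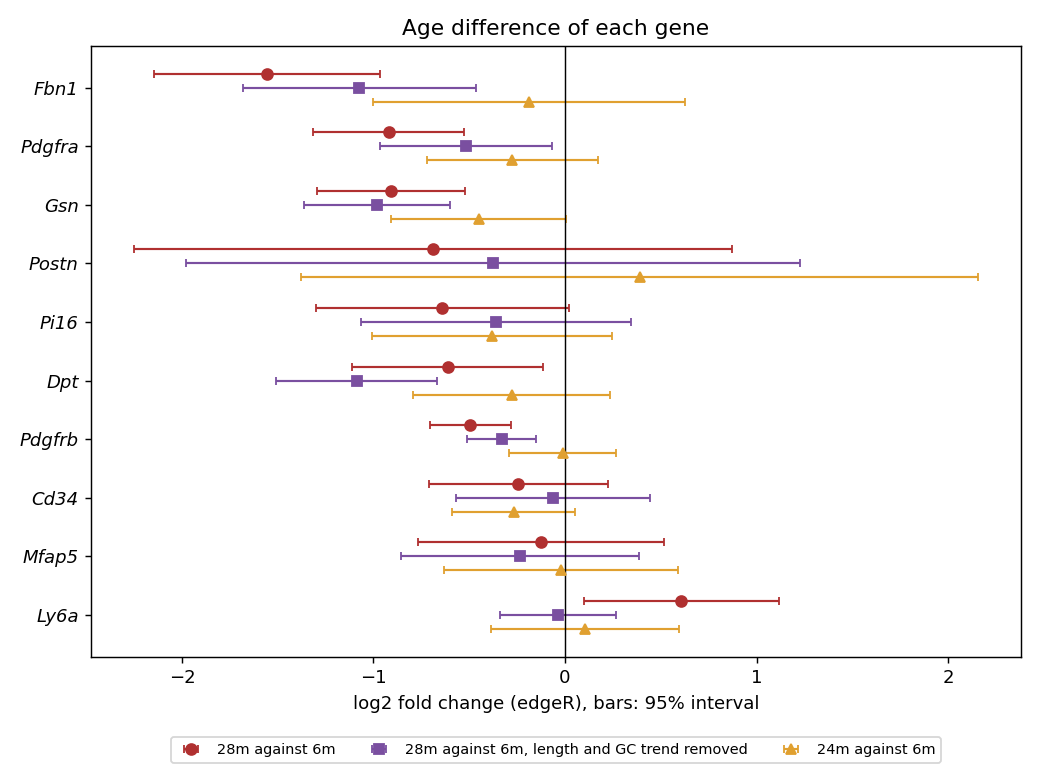
Log2 fold change of each gene (horizontal axis, bars are 95% intervals) for 28m against 6m, for the same comparison after removal of a trend with exonic length and GC content, and for 24m against 6m. At 28m Fbn1 stood at -1.55, and Ly6a moved from 0.61 to -0.04 after the trend was removed.

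The difference between the age effects was tested as a contrast over all 29 libraries. None of the 10 members passed, as none of the 13455 genes did (0%), so the absence of a call at 24m was not shown to differ from the calls at 28m. In 3 members the 28m effect was lower at an unadjusted p under 0.05, Pdgfrb (-0.47), Fbn1 (-1.35) and Pdgfra (-0.63), and 7.31% of all genes were. With length and GC content accounted for, the differences were -0.36, -0.92 and -0.31. The edgeR adjusted p of these 3 without that correction lay between 0.398 and 0.409. The mice at 6m are shared by both effects, and limma-voom passed 0 members with and without the mouse as a block. Without 24m replicate 4, Pdgfrb (-0.50, edgeR adjusted p = 0.0410) and Fbn1 (-1.48, edgeR adjusted p = 0.0437) passed, among 453 genes that passed as lower and 1204 as higher in that fit.

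Across genes, the difference at 28m moved with exonic length. Spearman's rho between length and log2 fold change was -0.54 over 12871 genes, which are not independent replicates and share the same libraries. It was -0.27 for 24m against 6m, and 0.46 between the 2 sets of 6m libraries, which came from the same mice. The members span the range of lengths, from 1205 exonic bases for Ly6a and 1724 for Dpt to 10024 for Pdgfra and 12128 for Fbn1, where the median of the genes was 4491. The member that rose was the shortest, and the one with the largest fall was the longest. Between them the order was not that of length. Dpt (-0.61) and Gsn (3157 bases, -0.91) are shorter than the median and passed as lower. Cd34 (7290 bases, -0.24) is longer and did not pass.

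**Figure D3:**
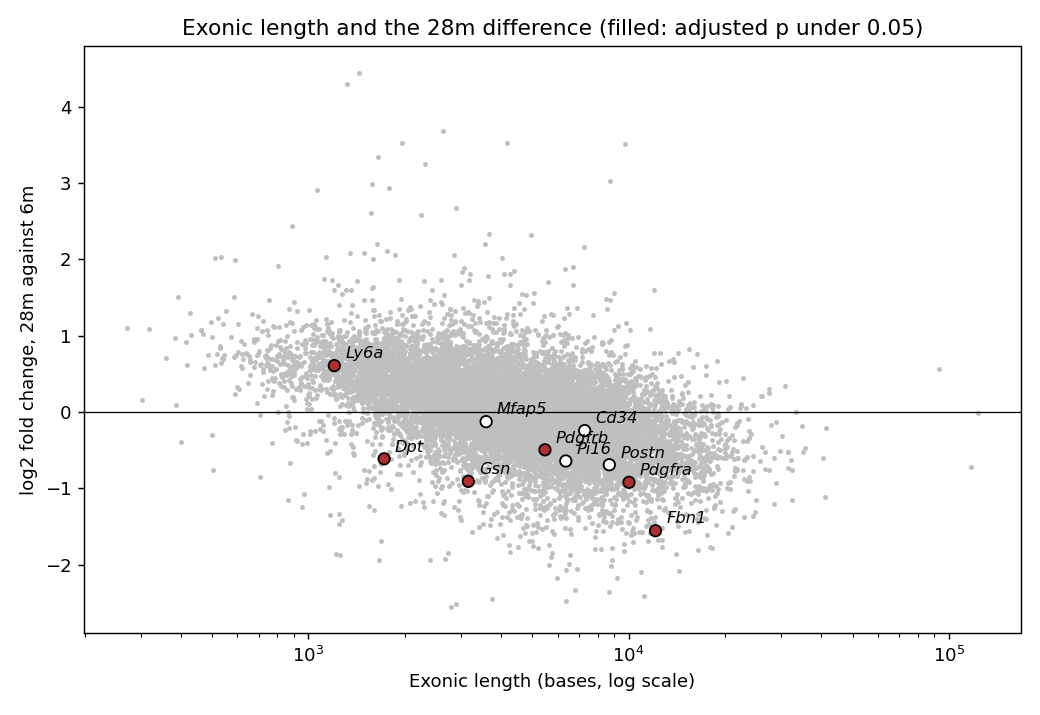
Log2 fold change at 28m (vertical axis) against exonic length (horizontal log axis) for the genes tested (grey), with the 10 genes named and filled where the adjusted p was under 0.05. Ly6a (1205 bases) lies amid the grey points of its length, while Dpt (1724 bases), Gsn (3157 bases) and Fbn1 (12128 bases) lie toward the lower edge of theirs.

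When the libraries were corrected for a smooth trend with exonic length and GC content, 4 members passed as lower and 0 as higher, and 18.8% of all 12994 genes passed as lower and 2464 genes as higher. Dpt became larger (-1.09, edgeR adjusted p = 0.00104) and Gsn was about the same (-0.98, edgeR adjusted p = 0.00107). Fbn1 (-1.07, edgeR adjusted p = 0.00895) and Pdgfrb (-0.33, edgeR adjusted p = 0.00710) were smaller and still passed. Pdgfra no longer passed, as given above, and Ly6a was -0.04 (edgeR adjusted p = 0.858). The cause of the trend with length was not tested.

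The 6m mice gave a measure of how far a member moves between libraries of 1 animal. Between the 2 sets of 6m libraries 0 of the 10 members passed, and 0% of 12884 genes did, with 0 members at an unadjusted p under 0.05. This fit did not pair the libraries of a mouse, so the spread among mice can hide shifts between libraries. In it 357 of all genes had an unadjusted p under 0.05 in edgeR, against 1052 with the mouse as a block. With that block 0 members passed as well. In 6 of the 7 mice, the log2 difference of a member between the libraries lay between -0.28 and 0.27. In replicate 4 it reached 0.92 for Fbn1 and 0.69 for Pdgfrb, and was -0.87 for Ly6a, -0.66 for Mfap5 and -0.48 for Dpt. The libraries of this mouse differed most over all genes too, with an SD of the log2 difference of 0.617, against 0.237 to 0.282 in the others.

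**Figure D4:**
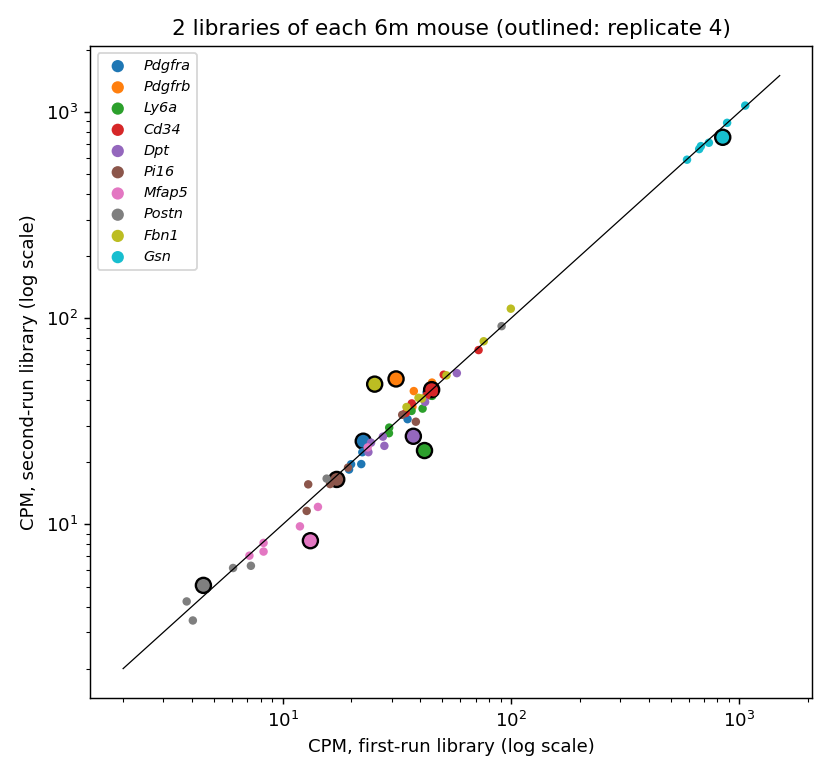
CPM of each gene in the second-run library (vertical log axis) against the first-run library (horizontal log axis) of the same 6m mouse, with the line of equal values and replicate 4 outlined. Most points lie on the line, and Fbn1 and Pdgfrb of replicate 4 lie above it while Ly6a, Mfap5 and Dpt lie below.

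Per kilobase of exon, Gsn was the highest member in each group, at 242 ± 52.1 CPM per kb (SD, n = 7) in the second-run libraries at 6m. Ly6a followed at 28.0 ± 6.10 and Dpt at 18.1 ± 6.70 CPM per kb, then Pdgfrb at 8.26 ± 0.79 and Cd34 at 6.42 ± 1.61. Fbn1 (4.81 ± 2.22), Pi16 (3.23 ± 1.36), Mfap5 (3.04 ± 1.63), Pdgfra (2.59 ± 0.92) and Postn (2.19 ± 3.71) came last, in CPM per kb (SD, n = 7). In these 6m libraries only the step from Gsn to Ly6a and that from Dpt to Pdgfrb had ranges that did not overlap. At 28m Fbn1 stood eighth in place of sixth, at 1.67 ± 0.67 CPM per kb (SD, n = 8), although its range overlapped those of Pi16 above it and Pdgfra below it.

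How the members varied from mouse to mouse within an age was compared by correlation. Over the 22 mice, with each 6m mouse taken as the mean of its libraries and the mean of its age subtracted, Pearson's r of log2 CPM was above 0 in 43 of 45 pairs, with a median of 0.58. Between the members and the 13445 other genes, r was above 0 in 50.6% of pairs, with a median of 0.01. Among the 45 pairs of members the range was from -0.08 (Pdgfrb and Ly6a) to 0.88 (Dpt and Mfap5), and the median of Spearman's rho was 0.53. The points share libraries, scaling and length effects, and no test was made. Leaving out the 2 mice farthest from the median of the members (6m replicate 2 and 28m replicate 5) gave a median r of 0.47 and 40 of 45 pairs above 0.

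**Figure D5:**
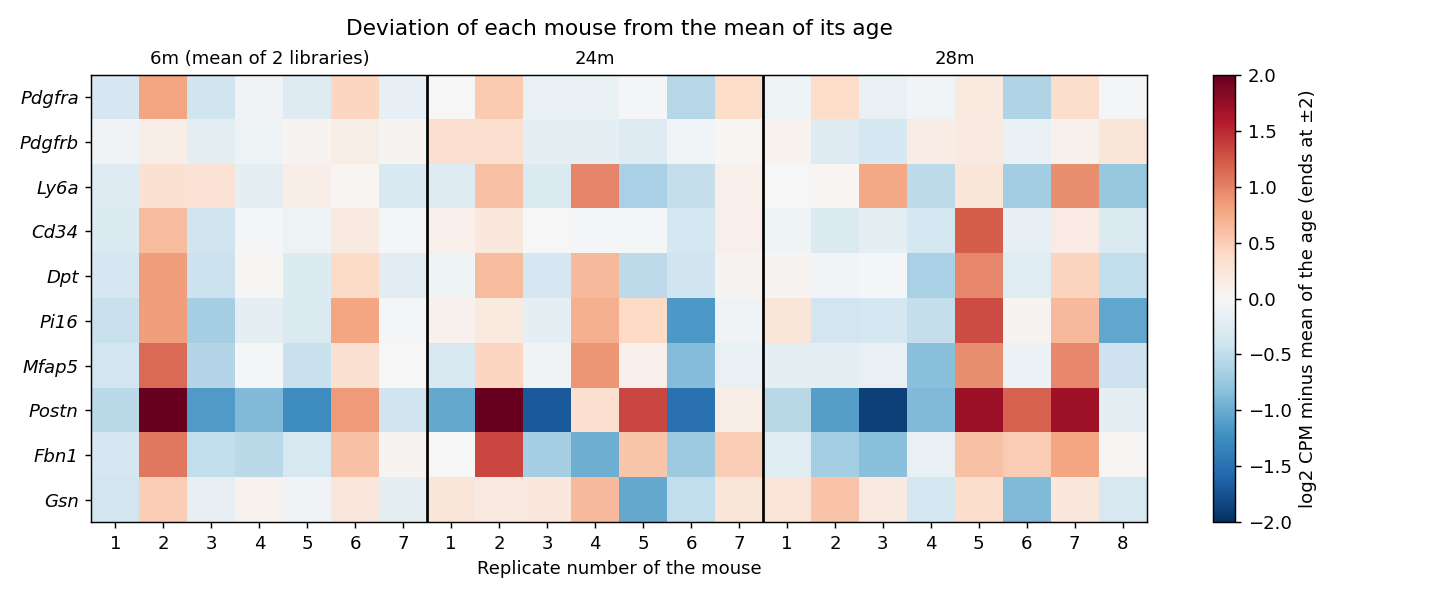
Deviation of log2 CPM of each gene (rows) from the mean of its age in each of the 22 mice (columns, in 3 blocks by age), where red is above and blue below the mean and colours end at ±2. The 6m replicate 2 column is red for all 10 genes, and Pdgfrb and Ly6a do not follow each other across mice.

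A few mice carried high values of most members. The 6m replicate 2 was above the mean of its age in all 10 members, and it was the highest mouse in 9 members in the first run and in 7 in the second. The 6m replicate 6, the 24m replicate 2 and the 28m replicates 5 and 7 were above the mean of their age in all 10 as well. At 28m, replicate 5 was highest for Cd34, Dpt, Pi16 and Postn and replicate 7 for Ly6a, Mfap5 and Fbn1. Even in these mice, Fbn1 stood at 28.2 and 32.6 CPM, below the lowest 6m mouse of the run.

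For each member, the gene with the most similar pattern was taken from 13445 genes outside the set, by Pearson's r over 22 mice within ages. Col3a1, a fibrillar collagen, was most like Postn (0.95), and Ctsk, the protease cathepsin K, was most like both Mfap5 (0.95) and Dpt (0.94). Twist2, a mesenchymal transcription factor, was most like Gsn (0.90), and Fbln7, a fibulin, most like Cd34 (0.87). Adcy7 was most like Fbn1 (0.95), Islr2 most like Pi16 (0.91) and 6330406I15Rik most like Pdgfra (0.91). For Ly6a it was Ly6c1 (0.93), a relative in the same gene family. STAR's gene counts leave out reads that map to more than 1 place, so reads that fit both genes would be missing from both. Pdgfrb had the weakest best match, Lasp1 (0.80). The genes with the highest median r over the members were Gdf10 (0.79), Col1a2 (0.78), Matn2 (0.77), Mfap4 (0.76) and Mfap2 (0.76).

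Other markers of FAPs and muscle fibroblasts, a list of 23 genes, had 9 lower and passed at 28m, 0 higher and 14 not passed, beside 22.9% of all genes that passed as lower and 24.3% as higher. The list's median log2 fold change was -0.41, beside 0.01 for all genes. The genes of type I and type III collagen, the main fibrillar collagens of the muscle matrix, were among the largest falls, Col1a1 at -1.88 ± 0.59 (SE, edgeR adjusted p = 0.0160), Col3a1 at -1.58 ± 0.59 (0.0376) and Col1a2 at -1.24 ± 0.49 (0.0456). Dpp4, a surface peptidase of the fibroblast state that Pi16 marks, fell by 1.09 ± 0.24 on the log2 scale (SE, edgeR adjusted p = 0.00260), and Smoc2 fell by 0.41. The surface peptidase Mme (-1.47), the transcription factors Ebf2 (-1.41) and Hic1 (-0.65) and the chemokine Cxcl14 (-0.42) also passed.

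Several markers of the same cells did not pass at 28m. The small proteoglycans Dcn (-0.15) and Lum (-0.11), the transcription factors Osr1 (-0.20) and Tcf7l2 (0.28) and the secreted lectin Clec3b (-0.40) were among them. Without 6m replicate 2, the mouse with the highest sum of this list, 5 of the 23 passed as lower, a share near that of all genes in the same fit, 2672 of 13036. That mouse summed to 4049 CPM over the list in the second run, against 1902 CPM in the next 6m mouse and a highest 28m sum of 1907 CPM. At 24m, 0 of the 23 passed.

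Genes of microfibrils and elastic fibres, which work with Fbn1 and Mfap5, had 5 of 12 lower and passed at 28m and 0 higher, where 22.9% of all genes were lower and passed. They were the latent TGF-beta binding proteins Ltbp4 (-0.89) and Ltbp1 (-0.39), the fibulins Fbln2 (-0.66) and Fbln5 (-0.37) and elastin, Eln (-0.60). After removal of the length and GC trend, 2 of the 12 passed as lower, beside 18.8% of all genes. Among 6 relatives and partners of periostin, Fn1 (-1.31), which encodes fibronectin, and the procollagen peptidase Bmp1 (-0.84) fell, 2 of 6 beside the 22.9% of all genes, and with the trend removed 0 passed as lower. In the gelsolin family, Avil (-0.92) and Svil (-0.69), advillin and supervillin, fell, 2 of the 5 tested beside the same 22.9%, and 1 passed as lower with the trend removed.

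Of 5 factors that FAPs secrete, Fst (0.91), which encodes the myostatin antagonist follistatin, and the cytokine Il15 (0.59) rose at 28m, 2 of 5 beside 24.3% of all genes that passed as higher, and 0 fell. Il33 (-0.14), Gdf10 (-0.42) and Wisp1 (-0.65) did not pass. Follistatin and Il15 are also made by muscle fibres. With the 6m libraries of the first run 0 of the 5 passed, where 1559 of all 12984 genes passed as higher. In 11 of 15 fits that left out 1 mouse, 1 of the 5 passed. Over the 9 other settings 0 to 2 passed as higher, with a changed number in 5 settings. In 1 of these settings 1 factor passed as lower.

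Markers of other cells that express members moved at 28m too, and their part in the members' differences was not tested. The counts below stand beside 22.9% of all genes that passed as lower and 24.3% as higher. Of 11 endothelial markers, 7 passed as lower and 2 as higher, Cldn5 (0.73) and Egfl7 (0.48). Their sum was between 354 and 479 CPM at 28m against 535 to 612 CPM at 6m, without overlap. Of 8 pericyte and smooth muscle markers, 5 passed as lower and 1, Tagln (0.58), as higher. Their sums were between 352 and 642 CPM at 28m against 654 to 747 CPM at 6m. These counts and sums were not corrected for the trend with length and GC content. The markers of both lists stand beside Pdgfrb, Cd34 and Ly6a, which such cells also make. With the 6m libraries of the first run, 4 endothelial and 1 pericyte or smooth muscle markers passed as lower, where 1422 of all 12984 genes did, against 2981 of 12994 in the comparison above. None of these defining markers was at 0 in a whole group.

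Immune markers had 0 of 8 passed, 6 of them with log2 fold changes above 0 and 2 below (median 0.71). Their sums were between 88.1 and 722 CPM at 28m and between 64.9 and 223 CPM at 6m. The 722 CPM belonged to 28m replicate 7, the mouse that was highest for Ly6a, and the next 28m mouse was at 139 CPM. Adipocyte markers had 0 of 5 passed, all with log2 fold changes above 0 (median 0.93), and their sums overlapped, from 9.77 to 174 CPM at 28m and from 14.2 to 51.1 CPM at 6m. Of 7 tendon markers 1, the transcription factor Scx (1.07), passed as higher, and sums lay between 121 and 405 CPM at 28m and between 213 and 385 CPM at 6m. Satellite cell markers had 2 of 3 lower and passed, Schwann cell markers had 1 of 5 higher, and fast fibre genes had 1 of 7 lower and 3 higher. Of all genes, 22.9% were lower and passed and 24.3% were higher and passed. At 24m, 0 genes of any of these lists passed, and all 8 immune markers had log2 fold changes above 0 (median 0.96).

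Of the members not placed above, Ly6a lies on chromosome 15 (74994877 to 74998031, minus strand), Cd34 on chromosome 1 (194938819 to 194961279, plus strand) and Dpt on the same chromosome (164796644 to 164824266, plus strand). Pi16 lies on chromosome 17 (29317680 to 29330593, plus strand), Mfap5 on chromosome 6 (122505845 to 122529290, plus strand) and Postn on chromosome 3 (54361109 to 54391037, plus strand), all in GRCm38. Exons of Pdgfra share 456 bases with Gm42802 and 166 with Gm42803, those of Cd34 share 148 bases with Gm16897, and those of Pi16 share 222 bases with AC162182.1, all on the other strand. On its own strand, Pdgfra shares 30 exonic bases with the microRNA gene Mir7025. Without a known strand setting, reads of the bases shared with the other strand are uncertain.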

How the data were processed

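RNA of the whole TA muscle was extracted by the authors, enriched for poly-A and made into libraries with the NEBNext Ultra II kit, for which the labels give a smaller amount of total RNA than the methods. Reads were demultiplexed with bcl2fastq 2.20 and aligned to mm10 with STAR 2.5.4b, and the deposited counts per gene came from STAR's counting, without normalization. The strand setting was not given in the sources used here. The deposited design text swaps the numbers of mice at 24m and 28m against the sample labels and the study's methods, and the labels were used.

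Counts were analysed here with edgeR 4.0.16 in R 4.3.3, with filterByExpr and TMM scaling. The quasi-likelihood test was two-sided, with Benjamini-Hochberg adjustment over all genes tested. Its precision rests on the spread among the 7 or 8 mice of a group and on the counts per library, 17633475 to 33499162. A log2 prior count of 2 was used. Standard errors were derived from the test. Mice are separate animals, and the 6m libraries of both runs share mice, as their titles show: deviations of the libraries of 1 mouse correlated over genes by 0.218 to 0.814, and the mouse was a block in an alternative. Lengths and positions came from GENCODE of GRCm38 (20202 symbols matched, 1897 by synonym, 438 unmatched), and promoters from RefSeq, GRCm38.p6. Alternatives used DESeq2 1.42.0 and limma 3.58.1, other scalings and filters, the 6m libraries of the other run, removal of a length and GC trend (splines with 5 degrees of freedom), and leaving out each mouse. Scripts were tested on simulated data. The members, gene lists and tests were chosen with earlier results of these data known. The text names all 10 members, genes of the lists, and for each member the most similar gene. Figures used matplotlib 3.10.9 in Python 3.11.15.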

Additional observations from a re-analysis of the deposited data

Results flagged for a closer look

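In 5 of 40 combinations of a member and a group of libraries, 1 mouse stood apart from its group by Dixon's test. For separate groups the test flags about 1 in 20 by chance. That rate cannot be set against the 5 of 40, since the combinations share mice and the members vary together. The 6m replicate 2 was the highest for Postn in both of its libraries, at 90.9 CPM in the first run, where the next mouse was at 15.6 CPM, and at 91.5 CPM in the second, where the next was at 16.7 CPM. The same mouse was the highest for Cd34 in the first run (72.0 CPM, next 50.7 CPM) and for Mfap5 in the second (23.6 CPM, next 12.2 CPM). The 28m replicate 5 was the highest for Cd34, at 87.0 CPM with the next mouse at 42.4 CPM.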

How the results depend on the processing

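Of the alternatives for the 28m comparison, Fbn1, Gsn and Pdgfrb passed as lower in all 9 other settings and in all 15 fits without 1 mouse, and Pdgfra passed in 8 of 9 and 15 of 15. Members lower at 28m numbered 4 to 7 in the fits without 1 mouse, and members higher 0 to 1. Members higher at 28m numbered 0 with limma-voom, with no filter on low counts, with the 6m libraries of the other run, with these libraries but without 6m mouse 4 (chosen after seeing the data) and with the length and GC trend removed, against 1 otherwise. Ly6a reversed to -0.0362 with the length and GC trend removed without passing, and Dpt missed the threshold with upper-quartile scaling. For the difference between the age effects, members lower numbered 0 to 2 in the 29 fits that each left out 1 library, the 2 being found without 24m replicate 4. With the mouse as a replicate block, 0 members passed in either direction, both for the difference of the effects (limma-voom) and between the 6m runs (edgeR), as without the block, so the block changed no call. No member passed at 24m in any of 8 other settings or 14 fits without 1 mouse. Over all genes, DESeq2 called 45 lower and 170 higher at 24m, against 3 and 8 with edgeR, 8 and 13 after the length and GC correction, 1 and 3 with at least 10 counts in every library, and from 1 and 3 up to 10 and 20 (without 24m replicate 4) in the fits without 1 mouse. With the 6m libraries of the other run, 1422 genes passed as lower and 1559 as higher at 28m against 2981 and 3159, and 16 and 30 at 24m. The causes of these changes were not tested. The lowest count of a member was 45, in Postn, where counting error is largest.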
